A study of Homo sapiens and Mus musculus with 12 samples.

Results

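The genes described here are 7 matrix metalloproteinases, *MMP1*, *MMP2*, *MMP3*, *MMP9*, *MMP10*, *MMP13* and *MMP14*, and 3 tissue inhibitors of metalloproteinases, *TIMP1*, *TIMP2* and *TIMP3*. They were chosen by name, in human and in mouse, where *Mmp1a* stands for *MMP1*. All 10 were found among the 63677 human gene identifiers and all 10 among the 47729 mouse identifiers. The values come from RNA-seq of 2 triple-negative breast cancer cell lines, human MDA-MB-231 and mouse 4T1. Cells of each line were grown with ponatinib, an inhibitor of several tyrosine kinases, at 1 μM or with its solvent DMSO for 24 h, and 3 libraries were analysed in each of the 4 groups. Each line stands for its species alone, so that a difference between the lines and a difference between the species cannot be told apart. The labels do not say whether replicates were separate cultures, and p-values then measure only the spread between these libraries.

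Matrix metalloproteinases are zinc-dependent enzymes that cut collagens, laminins, proteoglycans and other proteins of the extracellular matrix, and tumor cells use them in invasion and in the release of growth factors and cytokines. Most are secreted as inactive proenzymes, whereas *MMP14* encodes a membrane-anchored enzyme that activates proMMP2 at the cell surface. TIMPs bind the active site of the enzymes and block it. *MMP1* and *MMP13* encode collagenases, *MMP3* and *MMP10* stromelysins, and *MMP2* and *MMP9* gelatinases.

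Total counts were between 15012884 and 17301760 per MDA-MB-231 library and between 17800675 and 18951493 per 4T1 library. Levels are given as CPM, read counts relative to the TMM-scaled total of their library, and ponatinib was compared with DMSO apart in each line by the quasi-likelihood test of edgeR. Adjusted p-values are Benjamini-Hochberg values over all genes tested, the threshold was 0.05, and SE is the standard error of a log2 fold change. Scaling by total counts instead put the median log2 fold change over all genes at 0.11 for MDA-MB-231 and 0.12 for 4T1 and moved the split of calls in 4T1 from 3909 lower and 3925 higher to 2936 lower and 4853 higher. Among the 5 epithelial markers, 3 reached 10 CPM in MDA-MB-231, where the sum of the list was 1621 to 1989 CPM with DMSO and 2237 to 2796 CPM with ponatinib. *KRT8* went from 888 to 1636 CPM there and *EPCAM* from 6.43 to 8.55 CPM. *KRT18* and *KRT19* (log2 fold changes 0.12 and -0.03) did not pass. In 4T1, 4 reached 10 CPM, and the sums overlapped at 7871 to 9065 and 8015 to 8827 CPM. *Krt18* was lower there (-0.54), *Krt8* was higher (0.24), and *Krt19*, *Epcam* and *Cdh1* did not pass. The sum of the 4 mesenchymal markers was lower with ponatinib in both lines without overlap, but its genes moved differently. It was 1340.1 to 1526 CPM with DMSO and 945 to 1123 CPM with ponatinib in MDA-MB-231. There *VIM* and *ZEB1* were lower (log2 fold changes -0.66 and -0.50) and *FN1* was higher (0.75). In 4T1 the sum was 6423 to 7364 CPM with DMSO and 4397 to 4819 CPM with ponatinib. There *Fn1* went from 3411 to 969 CPM and *Zeb1* was lower (-0.36). *Vim* went from 3254 to 3602 CPM in 4T1 and did not pass. None of the leukocyte or endothelial markers reached 10 CPM in either line. The leukocyte sum in MDA-MB-231 was 0.691 to 0.970 CPM with DMSO and 1.59 to 2.23 CPM with ponatinib. It was mostly *CSF1R*, the only gene of that list tested there, at 0.734 and 1.80 CPM. The endothelial sum in 4T1 was 2.89 to 5.03 CPM with DMSO and 0.867 to 1.45 CPM with ponatinib. Only 1 gene of that list was tested there, with a log2 fold change of -2.06. The leukocyte sum in 4T1 and the endothelial sum in MDA-MB-231 overlapped between the groups. Of the 6 fibroblast markers, only *COL1A1* reached 10 CPM in MDA-MB-231, and the sum of the list rose from 25.7 to 31.3 CPM with DMSO to 73.0 to 77.1 CPM with ponatinib. In 4T1 that sum was 5.94 to 6.88 CPM with DMSO and 9.55 to 10.2 CPM with ponatinib, with 3 of the 6 markers listed at 0 in all libraries. The part of these markers in the results was not tested.

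Of the 10 human genes, 4 were matched in the promoter sequences from RefSeq used here (GRCh38.p14), *MMP10*, *MMP14*, *TIMP1* and *TIMP3*, and all 4 are shown. The promoters of *MMP1*, *MMP2*, *MMP3*, *MMP9*, *MMP13* and *TIMP2* were not analysed here. *MMP14*, *TIMP1* and *TIMP3* are genes whose response differed between the lines, whereas *MMP10*, a neighbor of *MMP1* and *MMP3*, had 29 counts in all MDA-MB-231 libraries together. Each run is the 120 bases before the start that RefSeq gives, written 5′ to 3′ on the strand of the gene and searched on both strands. Capitals mark exact matches to TGANTCA or to TATAAA (the core element bound by TBP). TGANTCA covers the AP-1 core sites TGACTCA and TGAGTCA and also allows other central bases.
MMP10 (chr11:102780629-102780748, minus strand): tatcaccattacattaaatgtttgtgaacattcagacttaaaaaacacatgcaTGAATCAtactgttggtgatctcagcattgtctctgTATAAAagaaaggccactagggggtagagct
MMP14 (chr14:22836465-22836584, plus strand): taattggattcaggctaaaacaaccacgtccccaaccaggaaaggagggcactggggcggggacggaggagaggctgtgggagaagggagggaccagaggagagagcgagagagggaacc
TIMP1 (chrX:47582316-47582435, plus strand): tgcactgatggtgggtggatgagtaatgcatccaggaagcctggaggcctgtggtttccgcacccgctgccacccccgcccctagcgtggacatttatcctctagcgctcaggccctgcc
TIMP3 (chr22:32801585-32801704, plus strand): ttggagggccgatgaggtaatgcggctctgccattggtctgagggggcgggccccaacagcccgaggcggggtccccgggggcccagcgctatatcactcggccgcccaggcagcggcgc
In the 250 bases before the start, *MMP10* held 1 match to TGANTCA, beginning 67 bases before the start, and 1 to TATAAA, beginning 31 bases before it. The *MMP10* match to TGANTCA reads TGAATCA, which is neither of those AP-1 core sites. The other 3 promoters held no exact match to either pattern, and inexact sites were not looked for. TGANTCA was found in 6.57% and TATAAA in 10.7% of the same 250 bases of all 35116 promoters. The GC content of these 250 bases was 34.4% for *MMP10*, 56.8% for *MMP14*, 64.8% for *TIMP1* and 72.4% for *TIMP3*, against a median of 58% over all promoters.

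In MDA-MB-231, ponatinib-treated libraries held less *MMP1*, *MMP3*, *MMP14* and *MMP9* RNA and more *TIMP2* and *TIMP3* RNA, and *TIMP1* did not pass the test. Of the 10 genes, 7 passed the filter on low counts, and 4 of them were lower and 2 higher. Over all 14610 genes tested in this line, 26.8% were lower, 27.2% higher and 54.0% changed in either direction. The ponatinib and DMSO libraries did not overlap for 5 of the 7, where 60.4% of all tested genes did not overlap. The median log2 fold change was -0.41 over the 7 genes and 0.02 over all genes tested. These are bulk libraries, in which fewer cells that express a gene and less RNA per cell cannot be told apart.

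*MMP1* (ENSG00000196611, chromosome 11 of hg38 from 102789401 to 102798160, minus strand), interstitial collagenase, stood at 9883, 10104 and 9735 CPM in the 3 DMSO libraries and at 2033, 2038 and 2033 CPM in the 3 ponatinib libraries. The groups lay far apart and the ponatinib libraries were nearly equal. The log2 fold change was -2.28 (SE 0.07, adjusted p = 1.41e-09 by edgeR), a 4.87-fold fall. *MMP1* RNA took 0.916% to 0.999% of all counts of a DMSO library and 0.203% to 0.215% of a ponatinib library. By level per length of exon, it ranked 9 of 52181 genes with DMSO and 29 with ponatinib, so that it was still among the most abundant transcripts after its fall.

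*MMP3* (ENSG00000149968, chromosome 11 from 102835801 to 102843609, minus strand), a stromelysin with a broad range of substrates that also activates other proenzymes, was measured at 176, 199 and 187 CPM with DMSO and at 26.1, 23.1 and 27.5 CPM with ponatinib. All ponatinib libraries were low and close to each other. The log2 fold change was -2.87 (SE 0.09, adjusted p = 1.80e-09 by edgeR), a 7.32-fold fall, which was the largest among the genes tested here in this line. Per library, *MMP3* counts were 1.78% to 1.97% of the *MMP1* counts with DMSO and 1.13% to 1.35% with ponatinib.

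The other stromelysin and the other collagenase were close to absent in MDA-MB-231 and were not tested. *MMP10* had 5, 8 and 7 counts with DMSO and 0, 0 and 9 with ponatinib, so that all of its ponatinib counts came from replicate 3. *MMP10* shares 59 of its 1757 stretches of 50 transcribed bases with *MMP3*, and a read confined to one of them fits both genes. *MMP13* had 9, 10 and 2 counts with DMSO and 7, 5 and 1 with ponatinib, a ratio of depth-scaled sums of 0.577 (95% Clopper-Pearson interval 0.265 to 1.21, counting error only).

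*MMP14* (ENSG00000157227, chromosome 14 from 22836560 to 22849041), the membrane-anchored enzyme, stood at 641, 615 and 629 CPM with DMSO and at 430, 433 and 436 CPM with ponatinib. The groups did not overlap. Its log2 fold change of -0.54 (SE 0.07, adjusted p = 4.37e-05 by edgeR) was much smaller than those of *MMP1* and *MMP3*.

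The gelatinases were low in this line. *MMP9* (ENSG00000100985, chromosome 20 from 46008908 to 46016561) was measured at 16.8, 11.4 and 14.4 CPM with DMSO and at 12.2, 9.67 and 10.1 CPM with ponatinib, and the groups overlapped, since the lowest DMSO library lay below the highest ponatinib library. Its log2 fold change was -0.41 (SE 0.16, adjusted p = 0.0447 by edgeR). This call was lost in 7 of 12 alternative settings, among them the omission of DMSO replicate 1, DMSO replicate 3, ponatinib replicate 2 or ponatinib replicate 3, with adjusted p-values up to 0.15. *MMP2*, the substrate of the enzyme encoded by *MMP14*, had 0 counts in the 3 DMSO libraries and 3 counts in 1 ponatinib library, which is at the limit that a count of 0 allows, and no fold is given.

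Of the inhibitors, *TIMP3* (ENSG00000100234, chromosome 22 from 32801705 to 32863041), which is held in the extracellular matrix and also blocks ADAM proteases, rose from 27.2, 33.4 and 30.5 CPM with DMSO to 52.2, 60.4 and 63.5 CPM with ponatinib. The log2 fold change was 0.95 (SE 0.11, adjusted p = 1.70e-05 by edgeR), and the groups did not overlap. *TIMP2* (ENSG00000035862, chromosome 17 from 78852977 to 78925387), which also takes part in the activation of proMMP2 by *MMP14*, was at 235, 266 and 268 CPM with DMSO and at 309, 342 and 363 CPM with ponatinib, again without overlap. Its log2 fold change was 0.40 (SE 0.09, adjusted p = 0.00197 by edgeR). *TIMP1* (ENSG00000102265, chromosome X from 47582408 to 47586789), a soluble inhibitor of many secreted metalloproteinases, was at 257, 204 and 196 CPM with DMSO and at 226, 181 and 169 CPM with ponatinib. Replicate 1 was the highest library of both groups, and the groups overlapped. The log2 fold change was -0.19 (SE 0.12, adjusted p = 0.215 by edgeR). With the replicate number as a block, the same log2 fold change of -0.19 had an adjusted p of 0.000195, and without ponatinib replicate 1 it was -0.32 with an adjusted p of 0.014. With no filter it was -0.22 with an adjusted p of 0.0436.

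**Figure D1:**
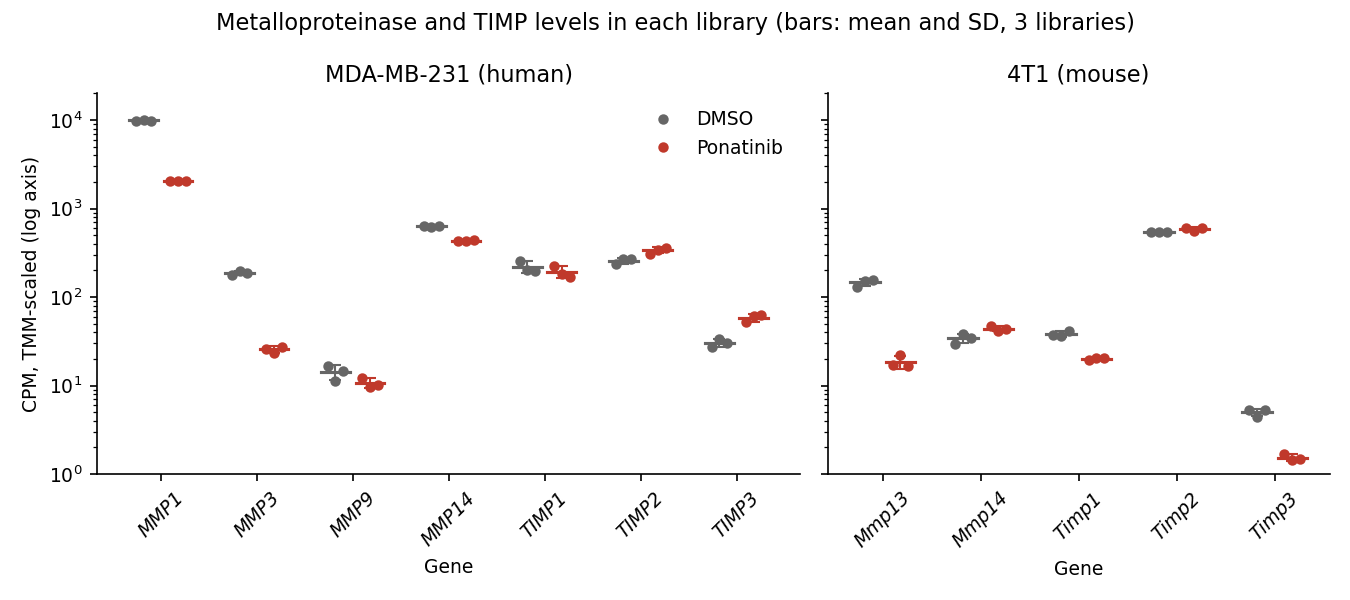
CPM of each gene above the count filter (log axis) in every library of MDA-MB-231 (left) and 4T1 (right), with DMSO in gray and ponatinib in red; points are libraries, bars the mean and SD of 3 libraries. *MMP1* in MDA-MB-231 fell from 9907 ± 186 to 2035 ± 2.80 CPM and *Mmp13* in 4T1 from 147 ± 14.1 to 18.6 ± 3.19 CPM, while *TIMP3* rose in MDA-MB-231 and *Timp3* fell in 4T1.

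In 4T1, *Mmp13*, *Timp1* and *Timp3* RNA was lower with ponatinib, *Mmp14* was higher, and *Timp2*, the most abundant of the 10, did not pass the test. Of the 10 genes, 5 passed the filter, and 3 of these were lower and 1 was higher. Over all 13286 genes tested in 4T1, 29.4% were lower, 29.5% higher and 59.0% changed in either direction. The groups did not overlap for any of the 5, where 63.4% of all tested genes did not overlap. Their median log2 fold change was -0.94, against 0.00 over all genes tested.

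*Mmp13* (ENSMUSG00000050578, chromosome 9 of GRCm39 from 7272514 to 7283331, plus strand), the collagenase of this line, stood at 131, 154 and 157 CPM with DMSO and at 17.1, 22.3 and 16.5 CPM with ponatinib. No ponatinib library came near a DMSO library. The log2 fold change was -2.98 (SE 0.11, adjusted p = 5.57e-11 by edgeR), a 7.90-fold fall and the largest among the genes tested here in 4T1. *Mmp1a* was listed at 0 in all 6 libraries, so that each line expressed mainly 1 of the collagenases, *MMP1* in MDA-MB-231 and *Mmp13* in 4T1, and the abundant one fell in each line.

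The stromelysins and gelatinases of 4T1 lay below the filter. *Mmp9* had 16, 15 and 9 counts with DMSO and 0, 0 and 2 with ponatinib, and *Mmp10* had 15, 6 and 14 with DMSO and 1, 1 and 5 with ponatinib. Neither pair of groups overlapped. The ratio of depth-scaled sums, ponatinib over DMSO, was 0.0470 for *Mmp9* (95% Clopper-Pearson interval 0.00550 to 0.181) and 0.188 for *Mmp10* (0.0705 to 0.430). With no filter, edgeR gave *Mmp9* a log2 fold change of -4.16 with an adjusted p of 8.15e-06 and *Mmp10* one of -2.34 with an adjusted p of 0.00371, on counts this low. *Mmp3* had 5 counts in all with DMSO and 1 with ponatinib, a ratio of 0.188 with an interval of 0.00397 to 1.68. *Mmp2* had a single count in the 6 libraries. *Mmp10* shares 140 of its 1673 stretches of 50 bases with *Mmp3*.

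**Figure D2:**
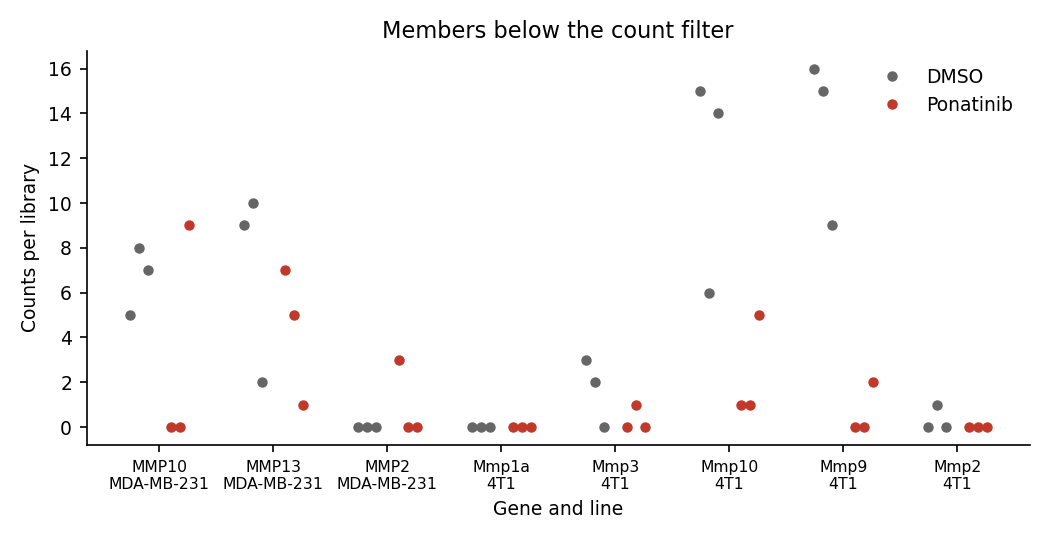
Counts per library of the genes below the count filter, MDA-MB-231 on the left and 4T1 on the right, with DMSO in gray and ponatinib in red, 1 point a library. *Mmp9* and *Mmp10* in 4T1 are the genes whose DMSO counts all lie above the ponatinib counts, and no library of any of these genes exceeded 16 counts.

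*Mmp14* (ENSMUSG00000000957, chromosome 14 from 54668878 to 54682821) was at 29.8, 38.3 and 34.5 CPM with DMSO and at 46.9, 41.4 and 43.6 CPM with ponatinib, without overlap. The log2 fold change was 0.36 (SE 0.10, adjusted p = 0.00650 by edgeR). The call held in all 12 alternatives, with adjusted p-values up to 0.03.

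*Timp3* (ENSMUSG00000020044, chromosome 10 from 86136236 to 86185371) stood at 5.27, 4.44 and 5.24 CPM with DMSO and at 1.69, 1.45 and 1.46 CPM with ponatinib, a log2 fold change of -1.70 (SE 0.21, adjusted p = 7.39e-06 by edgeR). It was thus the least abundant of the 5 in both groups and its counts were 80 to 96 and 27 to 33 per library. *Timp1* (ENSMUSG00000001131, chromosome X from 20736316 to 20740976) was at 37.6, 36.3 and 41.7 CPM with DMSO and at 19.4, 20.3 and 20.5 CPM with ponatinib, a log2 fold change of -0.94 (SE 0.10, adjusted p = 1.28e-06 by edgeR). *Timp2* (ENSMUSG00000017466, chromosome 11 from 118191887 to 118246566) was at 540, 542 and 546 CPM with DMSO and at 606, 564 and 606 CPM with ponatinib. Its groups did not overlap, but the log2 fold change of 0.13 (SE 0.07, adjusted p = 0.146 by edgeR) did not pass the test. Scaled by total counts it was 0.24 with an adjusted p of 0.00753. With 3 libraries against 3, an exact two-sided permutation test on the libraries cannot go below 0.1, the value of every gene here whose groups did not overlap.

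Some of these genes share their place in the genome with others, and the sources do not say whether strand was used in counting. *WTAPP1*, a pseudogene on the opposite strand across *MMP10*, *MMP1* and *MMP3*, had 195 counts in the 3 DMSO libraries and 28 in the 3 ponatinib libraries. That is a small number beside those of *MMP1* but more than the 20 and 9 counts of *MMP10*. *Syn1*, which overlaps *Timp1* on the opposite strand, had 200 and 91 counts, and *Syn3*, which overlaps *Timp3*, had 39 and 83. *Syn3* counts were thus higher with ponatinib and *Timp3* counts lower. On the same strand, *CEP295NL* overlaps *TIMP2* and had 11 counts with DMSO and 21 with ponatinib in MDA-MB-231. *Cep295nl* overlaps *Timp2* and had 44 and 45 counts in 4T1. *TIMP2* shares 175 of its 6338 stretches of 50 bases with *CEP295NL*, and *Timp2* shares 330 of 4830 with *Cep295nl*.

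A different response of the lines was tested by the line-by-treatment interaction in edgeR over 12489 genes of the same symbol in both species, of which 42.0% passed. Genes entered this test by a filter over the 4 groups together, so that the 12489 can include genes low in 1 line. Results are given for the 4 genes here that were tested in both lines, and 3 of them differed. *TIMP3* rose in MDA-MB-231 and fell in 4T1, a difference of log2 fold changes of -2.65 (4T1 minus MDA-MB-231, SE 0.21, adjusted p = 7.91e-09 by edgeR). *MMP14* fell in MDA-MB-231 and rose in 4T1, a difference of 0.90 (SE 0.12, adjusted p = 6.68e-06). *TIMP1* had the lower log2 fold change in 4T1, a difference of -0.75 (SE 0.16, adjusted p = 0.000907 by edgeR), and its change in MDA-MB-231 alone did not pass. The difference for *TIMP2* was -0.27 (SE 0.11) and did not pass, with an adjusted p of 0.0573 by edgeR. It passed in 4 of 18 alternatives, which were DESeq2 (adjusted p = 0.00618), the replicate number as a block (adjusted p = 0.00262), a minimum of 10 counts in every library (adjusted p = 0.047) and the omission of MDA-MB-231 ponatinib replicate 1 (adjusted p = 0.0193). *MMP1*, *MMP3*, *MMP9* and *MMP13* each passed the filter of 1 line only, and no difference of response between the lines is given for them.

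**Figure D3:**
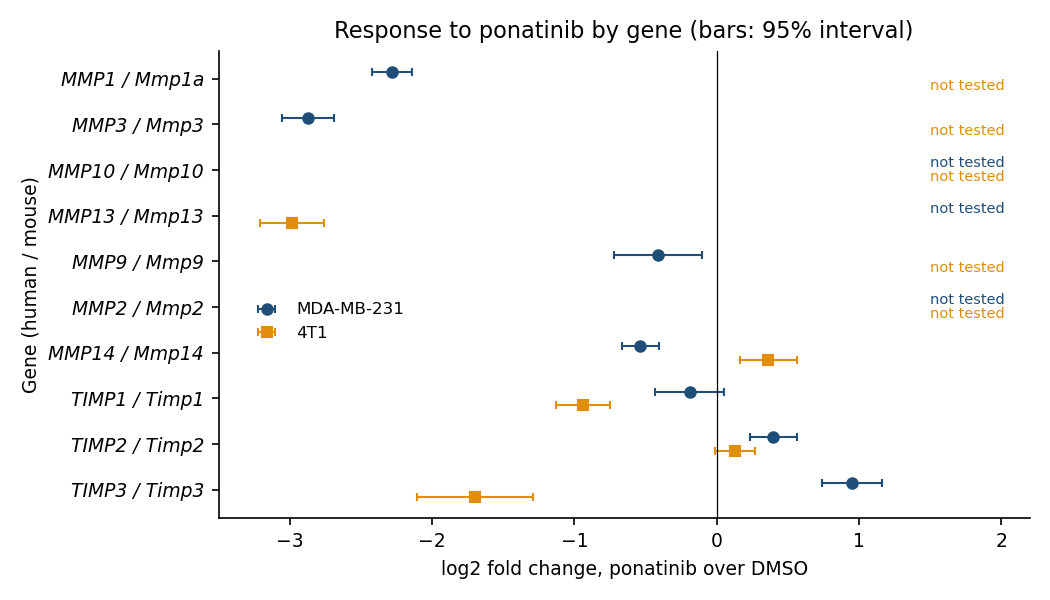
Log2 fold change of ponatinib over DMSO for each gene with its 95% interval, MDA-MB-231 as blue circles and 4T1 as orange squares; genes below the count filter are marked as not tested. *MMP1* and *MMP3* in MDA-MB-231 and *Mmp13* in 4T1 lie between -2.28 and -2.98, and *MMP14* and *TIMP3* lie on opposite sides of 0 in the 2 lines.

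To compare levels between genes, CPM were divided by the length of the gene's annotated exons and scaled to the same sum in each library. On this per-length scale, the order in MDA-MB-231 with DMSO was *MMP1* at 11319 ± 696 (SD, n = 3), *TIMP1* at 471 ± 42.6, *MMP14* at 425 ± 18.3, *MMP3* at 316 ± 35.8, *TIMP2* at 130 ± 16.2, *TIMP3* at 20.7 ± 3.14 and *MMP9* at 18.9 ± 2.80, followed by *MMP10*, *MMP13* and *MMP2*. *TIMP1* and *MMP14* overlapped, as did *TIMP3* and *MMP9*, and *MMP10* and *MMP13*. With ponatinib, *MMP3* dropped below *TIMP2* to 45.2 ± 5.00, where it overlapped *TIMP3* at 42.0 ± 6.51. In 4T1 with DMSO, *Timp2* led at 495 ± 13.3, followed by *Mmp13* at 225 ± 25.2, *Timp1* at 80.2 ± 5.15, *Mmp14* at 22.6 ± 3.39 and *Timp3* at 2.49 ± 0.176, none of which overlapped its neighbor. With ponatinib, *Mmp13* moved from the second to the fourth place at 30.3 ± 5.37 and overlapped *Mmp14* at 31.0 ± 2.42. With the longest transcript as length in place of all exons, *Mmp13* was at 22.0 and *Mmp14* at 40.3 with ponatinib, and *Mmp14* then lay above *Timp1* at 34.5.

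The summed per-length level of the 7 metalloproteinases was divided by that of the 3 TIMPs in each library, as a description. In MDA-MB-231 this ratio was 17.4, 20.6 and 20.5 with DMSO and 3.93, 4.42 and 4.53 with ponatinib, a log2 change of the mean of -2.18. In 4T1 it was 0.388, 0.457 and 0.450 with DMSO and 0.0960, 0.110 and 0.0918 with ponatinib, a log2 change of -2.12. On this scale, the summed RNA of these 7 genes exceeded that of the 3 TIMPs in every MDA-MB-231 library and was below it in every 4T1 library. The sums leave out the other metalloproteinases. On the same scale in 4T1, *Mmp28* went from 49.4 to 93.8 and *Mmp11* from 32.0 to 58.6, where *Mmp13* was at 30.3 with ponatinib. In MDA-MB-231, *MMP15* went from 17.7 to 44.8. A ratio that includes such genes was not calculated. The ratio of the 10 genes rested on the most abundant of them. Without *MMP1* and *TIMP1*, it went from 5.10 ± 0.344 to 1.68 ± 0.142 in MDA-MB-231, a log2 change of -1.60. Without *Mmp13* and *Timp2* in 4T1, it went from 0.306 ± 0.0397 to 0.693 ± 0.0570, a log2 change of 1.18 in the other direction.

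**Figure D4:**
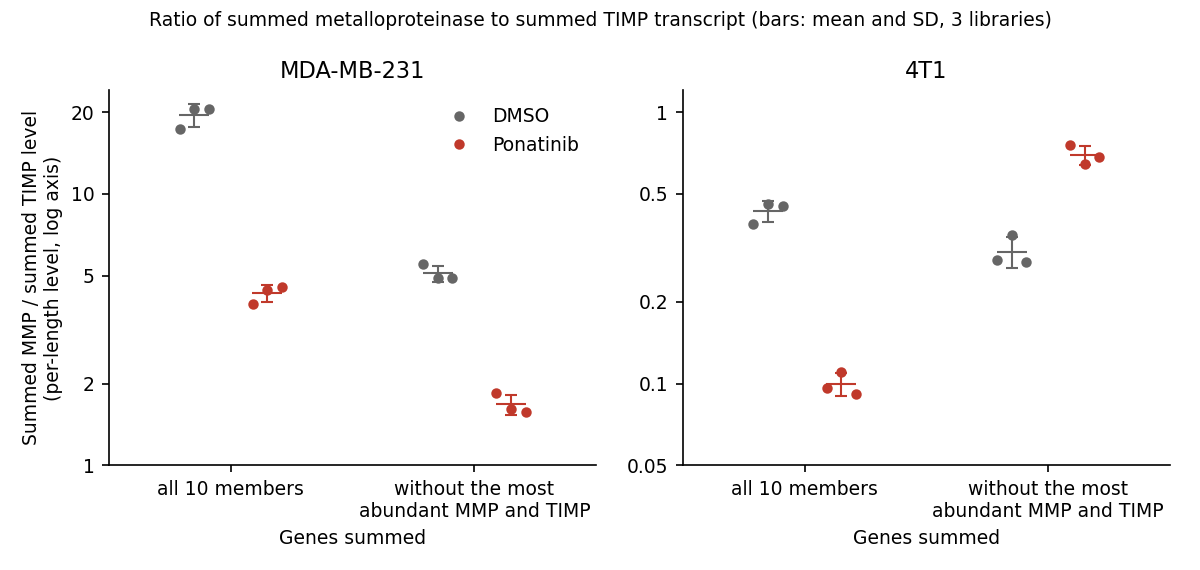
Ratio of the summed per-length level of the metalloproteinases to that of the TIMPs (log axes of different range) in each library of MDA-MB-231 (left) and 4T1 (right), for all 10 genes and without the most abundant gene of each kind; points are libraries, bars the mean and SD of 3. With all genes the ratio was lower with ponatinib in both lines, and without *Mmp13* and *Timp2* it was higher with ponatinib in 4T1.

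*MMP1*, *MMP3*, *MMP10* and *MMP13* lie in 1 cluster of metalloproteinase genes, which spans 435 kb with 9 genes on human chromosome 11 and 427 kb with 10 genes on mouse chromosome 9. In MDA-MB-231, *MMP1* and *MMP3* were the cluster genes that passed the filter, and in 4T1 *Mmp13* was the only one. *MMP12* of the human cluster was listed at 0 under the identifier matched here, and since older identifiers were not looked up its level is left unstated. The genes within 500 kb of the cluster were measured beside them. In MDA-MB-231, 3 of the 6 tested flanking genes were lower and 1 was higher, where 26.8% of all tested genes were lower and 27.2% higher. The apoptosis inhibitors *BIRC3* and *BIRC2* had log2 fold changes of -0.60 and -0.39, and *DCUN1D5*, a cullin neddylation factor, one of -0.59 (adjusted p = 0.00128, 0.00487 and 6.66e-05 by edgeR). *DYNC2H1*, a ciliary dynein, had one of 0.38 (adjusted p = 0.0373), a call lost in 7 of 12 alternatives, 5 of them the omission of DMSO replicate 1 or 3 or of any ponatinib replicate (adjusted p up to 0.14). *TMEM123* and *YAP1*, a transcriptional coactivator, were at -0.02 and -0.22 and did not pass, though *YAP1* did with the replicate number as a block (adjusted p = 0.000865), with no filter (adjusted p = 0.0355) and without DMSO replicate 1 (adjusted p = 0.00776).

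In 4T1, *Birc2* and *Birc3* were higher, with log2 fold changes of 0.49 and 1.11, and *Yap1* was lower, with -0.37 (adjusted p = 0.000768, 9.74e-08 and 0.000628 by edgeR), where 59.0% of all tested genes were called in either direction. The other 4 tested neighbors, *Dync2h1*, *Dcun1d5*, *Tmem123* and *Cfap300*, did not pass. With the replicate number as a block, *Dync2h1* and *Dcun1d5* were called lower (adjusted p = 0.0359 and 0.00177) and *Tmem123* higher (adjusted p = 0.0359). *Dcun1d5* was also called with no filter (adjusted p = 0.00889) and *Tmem123* with total counts (adjusted p = 0.0168). *Dync2h1* and *Dcun1d5* were also called lower without DMSO replicate 1 (adjusted p = 0.0126 and 0.000575), *Dcun1d5* without ponatinib replicate 3 (adjusted p = 0.0435), and *Cfap300* was called higher without ponatinib replicate 1 (adjusted p = 0.0494). Within 100 kb of the cluster, 1 of the 2 tested genes was called in MDA-MB-231, *DCUN1D5*, and the 3 tested in 4T1 are those that were called only with the block or another alternative.

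**Figure D5:**
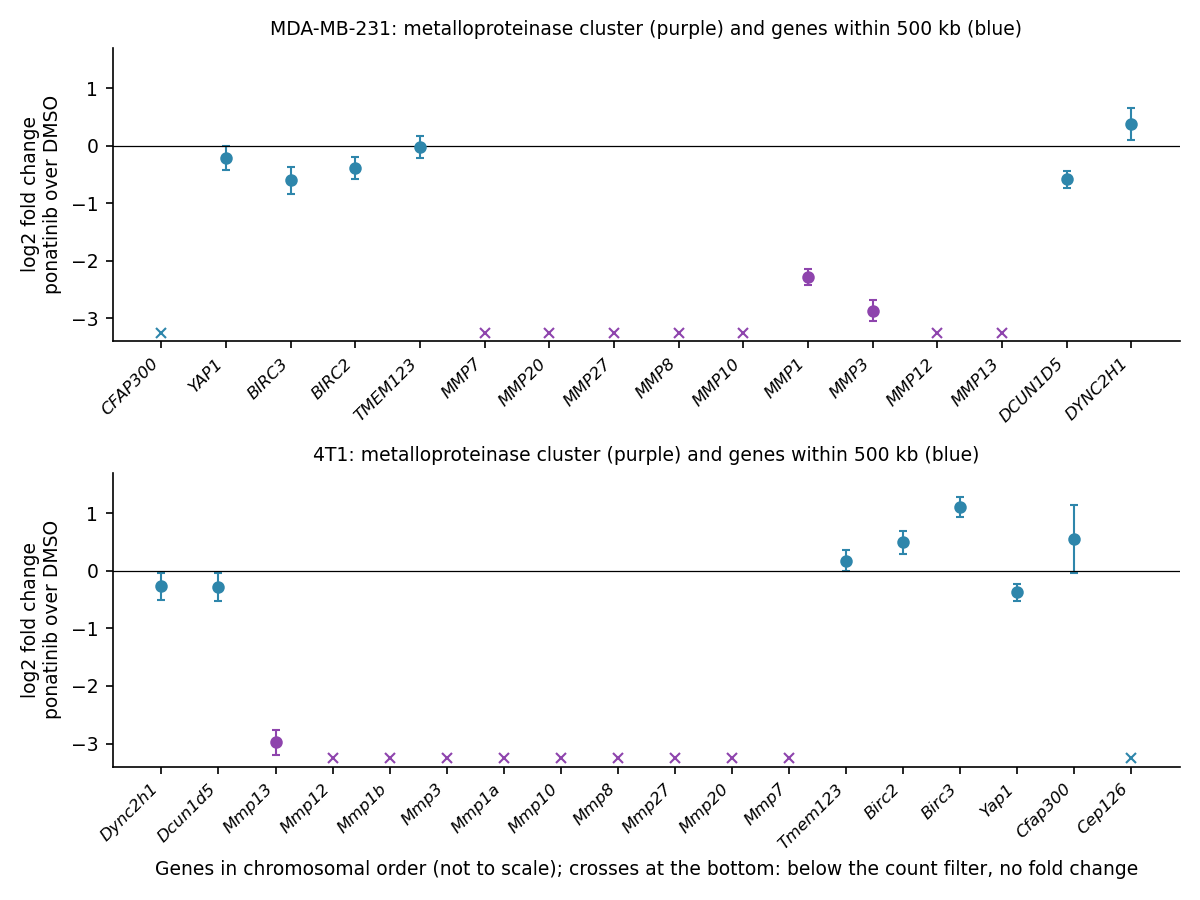
Log2 fold change of ponatinib over DMSO with its 95% interval for the metalloproteinase cluster (purple) and its neighbors within 500 kb (blue), in chromosomal order and not to scale, MDA-MB-231 above and 4T1 below; crosses at the bottom are genes below the count filter. The cluster genes that were tested lie at -2.28 or lower, and all tested neighbors lie between -0.60 and 1.11.

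The calls among the other metalloproteinases and *TIMP4* were rises, though 2 of them in each line needed their ponatinib libraries to pass the filter. Of 17 such genes found in each line, 5 were tested in MDA-MB-231 and 6 in 4T1, of which 3 and 4 were called higher and the other 2 in each line did not pass. The share of all tested genes called higher was 27.2% for the human line and 29.5% for the mouse line. The human genes found include *MMP12* and *MMP28*, both listed at 0 under the identifiers matched here. *MMP15*, which like *MMP14* encodes a membrane-anchored enzyme, went from 24.0 ± 1.99 to 58.0 ± 4.96 CPM in MDA-MB-231 (log2 fold change 1.27, adjusted p = 1.16e-06 by edgeR). The other 2 that rose there were *MMP11*, at 0.690 and 3.62 CPM, and *MMP24*, at 0.705 and 1.81 CPM, both named after their values were seen. With DMSO, *MMP11* had 9, 16 and 7 counts and *MMP24* had 7, 10 and 16. Without their ponatinib libraries neither would have been tested, so that the filter favored a rise. In 4T1, *Mmp28* went from 90.7 ± 9.08 to 161 ± 6.36 CPM (log2 fold change 0.83) and *Mmp11* from 27.8 ± 3.38 to 47.4 ± 1.75 CPM (0.77). The other 2 were *Mmp15*, at 0.299 and 2.06 CPM, and *Mmp23*, at 0.537 and 1.27 CPM, again named after their values were seen. With DMSO, *Mmp15* had 10, 3 and 3 counts and *Mmp23* had 9, 10 and 10, and the filter favored a rise here too.

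Among 17 genes that act on metalloproteinases, MDA-MB-231 had 5 lower and 5 higher of 14 tested, and 4T1 had 5 lower and 2 higher of 10 tested, beside 54.0% and 59.0% of all tested genes called in either direction. *LRP1*, an endocytic receptor that clears metalloproteinases and TIMPs, rose in both lines, from 31.3 ± 2.78 to 104 ± 5.85 CPM in MDA-MB-231 (log2 fold change 1.73) and from 202 ± 29.1 to 560 ± 126 CPM in 4T1 (1.47). *CAV1*, the main protein of caveolae, had a log2 fold change of 0.61 in MDA-MB-231 and *Cav1* one of -1.12 in 4T1. *TFPI2*, a serine protease inhibitor, went from 75.2 ± 2.10 to 19.6 ± 1.90 CPM in MDA-MB-231, and *SPOCK1*, a proteoglycan, and *CD44*, a cell surface receptor that docks *MMP9*, had log2 fold changes of -1.03 and -0.77. *BSG*, which encodes an inducer of metalloproteinases, had one of 0.28 (adjusted p = 0.0231 by edgeR), a call lost without DMSO replicate 2, DMSO replicate 3 or ponatinib replicate 2 (adjusted p up to 0.116). In 4T1, *Lcn2*, whose protein binds the MMP9 proenzyme, and *Pcsk6*, a proprotein convertase, had log2 fold changes of -1.33 and -0.85. *LCN2* in MDA-MB-231 went the other way at a low level, from 0.561 to 3.54 CPM (2.64), and *Cd44* in 4T1 fell (-0.35). Both were named after their values were seen. *LCN2* had 10, 9 and 7 counts with DMSO and needed its ponatinib libraries to pass the filter.

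The related ADAM and ADAMTS proteases were measured for comparison. Of 11 ADAM genes, 2 of 8 tested were lower and 1 was higher in MDA-MB-231, and 2 of 7 were lower and 1 was higher in 4T1. *ADAM19* and *ADAM15* fell in MDA-MB-231 (log2 fold changes -1.98 and -0.28) and *ADAM22* rose (0.95), whereas *Adam8* and *Adam9* fell in 4T1 (-1.60 and -0.41) and *Adam12* rose (1.96). Of 19 ADAMTS genes, MDA-MB-231 had 4 lower and 1 higher of 9 tested, and 4T1 had 2 lower and 4 higher of 8 tested. *ADAMTS1*, an aggrecan-cleaving protease, fell in both, from 63.1 ± 6.68 to 8.81 ± 1.76 CPM in MDA-MB-231 (log2 fold change -2.83) and from 38.3 ± 4.80 to 6.51 ± 1.13 CPM in 4T1 (-2.55). *ADAMTS6* also fell in both lines (-2.30 and -0.59), and in MDA-MB-231 *ADAMTS9* fell (-1.75) and *ADAMTS15* rose (1.09). The 4 ADAMTS genes higher in 4T1 were *Adamts7*, *Adamts9* (0.72), *Adamts10* and *Adamts15*, named after their values were seen. With ponatinib their means were 3.42, 4.28, 3.70 and 1.71 CPM. *Adamts15* had 0 counts in every DMSO library and was tested only through its ponatinib libraries. Over the 4 lists together, ponatinib lowered 11 and raised 10 of 36 tested genes of MDA-MB-231 (median log2 fold change 0.04), and it lowered 9 and raised 11 of 31 of 4T1 (median 0.07). These shares lay near the 54.0% (human) and 59.0% (mouse) of all tested genes that were called.

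The genes whose log2 CPM over the 6 libraries of a line followed the most changed member most closely are given as a description. For *MMP3* they were *ZWINT* (Pearson's r = 0.9999), *CCNB1*, *NUP88*, *C12orf4* and *ARHGAP27*, whose log2 fold changes lay between -0.93 and -0.53. For *Mmp13* in 4T1 they were *Hnrnpll* (r = 0.9998), *Necap1*, *Ereg*, *Gtf2e2* and *Ncaph*, with log2 fold changes between -1.81 and -0.25. Of the 9489 and 9441 genes compared, 17.7% and 15.8% had r over 0.95, since the 6 points fall into the 2 treatment groups.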

How the data were processed

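Adapters and poly-N reads were removed by the authors, who aligned the remaining reads of the TRIzol-extracted, NEBNext Ultra libraries by HISAT2 (hg38 for MDA-MB-231, GRCm39 for 4T1) and obtained counts with HTSeq. What they deposited are the raw counts of each gene, without normalization. Tool versions, annotation and strand setting are not given in the sources used here. Names and coordinates are from GENCODE v44 (hg38) and vM39 (GRCm39), which matched 81.9% of the human identifiers (99.3% of counts) and 91.1% of the mouse identifiers (99.8% of counts). An older identifier of a gene was not looked up, so a gene such as *MMP12* or *MMP28* can be listed at 0 under its present one.

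The genes and lists were chosen with earlier results of these data known. Groups follow the labels. Each line was fitted apart with edgeR 4.0.16 in R 4.3.3 (filterByExpr, TMM, glmQLFit, glmQLFTest, Benjamini-Hochberg over all genes tested). The 95% intervals of log2 fold changes are normal intervals from the SE, which was taken from the F statistic. The interaction of line and treatment was fitted over genes of the same symbol. The study used DESeq2, which was an alternative here (1.42.0). Other alternatives were DESeq2's size factors, total counts, a block for the replicate number, no filter, a minimum of 10 counts in each library, the omission of each library, the longest transcript as length, and a 100 kb flank. Named were all 10 genes, up to 3 rises and 3 falls per list and line at 5 CPM or more, all tested neighbors, and the 5 most alike genes (10 CPM or more).

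Same-numbered libraries deviated together (correlations 0.498, 0.175 and 0.218 for MDA-MB-231 and 0.278, 0.185 and 0.153 for 4T1). Since every pair was over 0.1, values with the replicate number as a block are given where they change a call; the main tests have no block. This pairing rests on the data alone, and libraries of different number reached 0.274 (MDA-MB-231) and 0.219 (4T1), above some of the same-numbered ones. No library was a copy of another (chi-square per gene 2.93 to 16.5). On simulated data, edgeR recovered 91.2% of 194 genes changed 2-fold in MDA-MB-231 and 94.7% of 189 in 4T1. It also made 7 and 13 false calls. The simulation gave all genes of a line the same dispersion and changed few of them. These rates need not hold for the measured libraries, where most tested genes were called.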

Additional observations from a re-analysis of the deposited data

Results flagged for a closer look

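The 2 lines responded differently in 3 genes by edgeR's line-by-treatment interaction (4T1 minus MDA-MB-231, log2 scale). It was -2.65 for *TIMP3*, 0.90 for *MMP14* and -0.75 for *TIMP1*, and each kept its direction and its call in all 18 alternatives, with ranges of -2.73 to -2.58, 0.81 to 0.99 and -0.88 to -0.62.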

How the results depend on the processing

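Over the 12 alternatives of each line, the calls of *MMP1*, *MMP3*, *MMP14*, *TIMP2* and *TIMP3* in MDA-MB-231 and of *Mmp13*, *Mmp14*, *Timp1* and *Timp3* in 4T1 kept their direction and their side of the threshold. With no filter, and with DESeq2, 5 of the genes were lower in 4T1 in place of 3, since *Mmp9* and *Mmp10* were then tested (DESeq2 adjusted p = 0.00155 and 0.0261). Leaving out 1 library gave 3 to 5. The smallest group then held 2 libraries, so that *Mmp9* or *Mmp10* could pass the filter through their DMSO libraries alone. Total counts gave 2 higher genes in 4T1, with *Timp2*. At 10 or more counts in every library, 6 of the other family and regulator genes were higher in MDA-MB-231 in place of 10, with fewer genes tested. Without the most abundant genes, the log2 change of the summed ratio was -1.60 for MDA-MB-231 and 1.18 for 4T1, and it was -1.75 in 4T1 with the longest transcript as length. *TMEM123*, close to 0, reversed to 0.071 with total counts and to 0.0070 at 10 counts, and lay between -0.12 and 0.046 when 1 library was left out; the cause was not tested. The replicate block changed the calls of *TIMP1*, *YAP1*, *Dync2h1*, *Dcun1d5*, *Tmem123* and the *TIMP2* difference, and of no other of the 10 genes, tested neighbors or genes named by rule. Over the other family and regulator genes it gave 25 changed in place of 21 in MDA-MB-231 and 23 in place of 20 in 4T1. Depth limits *MMP2*, *MMP10* and *MMP13* in MDA-MB-231 and *Mmp1a*, *Mmp2* and *Mmp3* in 4T1.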
